A study of Mus musculus with 9 samples.

Results

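The receptors of transforming growth factor beta (TGF-beta) and of the bone morphogenetic proteins (BMPs) were followed in blood monocytes of Ccr2-/-, Ccl2-/- and wild type mice. The 8 genes were taken by symbol from the annotation of the array, out of 19938 genes measured. They are the type I receptors Tgfbr1, Acvrl1, Acvr1 and Bmpr1a, the type II receptors Tgfbr2 and Bmpr2, and the co-receptors Tgfbr3 and Eng. The Ccr2-/- mice lack the receptor CCR2, and the Ccl2-/- mice lack its ligand CCL2, the chemokine that draws Ly-6Chi monocytes out of the bone marrow. All 3 genotypes were on the Balb/cJ background, aged 14 to 18 weeks and free of tumors. Each array held RNA from the pooled blood of 5 mice, with 3 arrays per genotype and 9 in all. The deletions were germline, so every cell of a knockout mouse carried them.

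A ligand of this family brings a pair of serine/threonine kinases together on the cell surface: a type II receptor, which is always active, phosphorylates a type I receptor, and the type I receptor phosphorylates SMAD proteins that move to the nucleus. TGFBR2 with TGFBR1 (ALK5) binds TGF-beta and signals through SMAD2 and SMAD3, while ACVRL1 (ALK1), ACVR1 (ALK2) and BMPR1A (ALK3) work with BMPR2 and signal through SMAD1, SMAD5 and SMAD9. Betaglycan (TGFBR3) and endoglin (ENG) have no kinase and present ligands to the kinases, and ENG is the partner of ACVRL1 for BMP9 and BMP10. TGF-beta is known in monocytes and macrophages as a chemoattractant and as a brake on inflammatory activation, and ACVRL1 and ENG are best known from blood vessel endothelium.

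Because 4 of the 8 genes were lower in Ccr2-/- monocytes, the start regions of those with an entry among the RefSeq promoters are shown here, as the sequence that lies before each of these genes. Of the 8 genes, 6 matched an entry, and Acvrl1 and Tgfbr3 did not. Each window runs from 250 bases before to 50 bases after the annotated start in mouse build GRCm38.p6, 5′ to 3′ along the gene's own strand. The Eng window is chr2:32646345-32646644 (plus strand), the Acvr1 window chr2:58566779-58567078 (minus strand) and the Bmpr2 window chr1:59764029-59764328 (plus strand). Capitals mark every match, on either strand, to the GC box GGGCGG, the PU.1 site GAGGAAGT or the BMP-type SMAD site GGCGCC.
Eng: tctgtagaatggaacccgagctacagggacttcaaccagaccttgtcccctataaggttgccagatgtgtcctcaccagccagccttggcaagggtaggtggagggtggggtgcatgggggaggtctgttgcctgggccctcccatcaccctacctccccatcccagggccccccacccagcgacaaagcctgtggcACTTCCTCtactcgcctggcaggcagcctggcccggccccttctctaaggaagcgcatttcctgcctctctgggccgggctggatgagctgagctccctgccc
Acvr1: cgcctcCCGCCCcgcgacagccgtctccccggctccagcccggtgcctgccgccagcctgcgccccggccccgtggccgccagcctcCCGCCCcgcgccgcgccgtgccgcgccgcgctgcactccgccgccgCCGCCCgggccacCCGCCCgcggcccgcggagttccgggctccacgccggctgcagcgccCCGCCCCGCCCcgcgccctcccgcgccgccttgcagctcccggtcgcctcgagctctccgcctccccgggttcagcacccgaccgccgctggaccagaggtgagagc
Bmpr2: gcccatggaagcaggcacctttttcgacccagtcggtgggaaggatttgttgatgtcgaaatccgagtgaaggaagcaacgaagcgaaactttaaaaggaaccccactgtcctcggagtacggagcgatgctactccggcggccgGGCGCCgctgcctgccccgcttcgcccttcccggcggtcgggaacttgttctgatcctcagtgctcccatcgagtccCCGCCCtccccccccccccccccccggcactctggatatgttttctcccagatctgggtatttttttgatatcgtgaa
The 3 windows differed in what they held. The Eng window had 1 PU.1 match, the letters read by the transcription factor that sets up the myeloid program, and 0 GC boxes. The Acvr1 window had 6 GC boxes, with overlapping matches counted singly, and 83.7% of its bases were G or C, against 63.3% in Eng and 59.3% in Bmpr2. The Bmpr2 window had 1 GC box and 1 SMAD match. Of 32851 promoter windows of the same length, 35.7% held the GC box, 3.20% the PU.1 site and 11.9% the SMAD site. Matches were not confined to the genes that fell. Among receptors without a call, the Bmpr1a window held 4 GC boxes and 1 SMAD match. The Tgfbr1 window at chr4:47352972-47353271 held 2 GC boxes and 1 SMAD match, and the other Tgfbr1 window and the Tgfbr2 window held 0 matches. A match is a description of the letters and not of binding.

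Monocytes were enriched on magnetic columns, first by removal of T cells (CD4, CD8), B cells (B220), neutrophils (Ly-6G), eosinophils (CCR3) and cells with MHC class II, and then by selection on CD11b. The study defined monocytes as negative for NK1.1 and CD11c, markers of NK and dendritic cells, as well, although the antibodies listed for the columns include neither. Ccr2 itself had a mean log2 intensity of 9.44 in Ccr2-/-, 12.76 in Ccl2-/- and 13.09 in wild type monocytes. The Ccl2 probes read 8.81 in Ccr2-/-, 9.45 in Ccl2-/- and 8.98 in wild type, and since the sources used here do not say where they lie relative to the deleted part, they check nothing. The array Ccl2-/- replicate 1 stood apart, with a median intensity of 430.8 against 324.1 to 355.1 on the other arrays and a mean correlation with its group of 0.972 against 0.981 to 0.994. The monocyte receptor Csf1r was bright in all groups (mean log2 12.79 in Ccr2-/-, 13.10 in Ccl2-/- and 13.15 in wild type), and so was the NK cell receptor Ncr1 (13.38, 13.08 and 12.69 in the same order of genotypes). Over 17 measured NK cell markers the summed linear intensity was 119970 to 123906 on the Ccr2-/- arrays, 88815 to 107237 on the Ccl2-/- arrays and 70736 to 76999 on the wild type arrays. Over 9 Ly-6Chi monocyte markers, Ccr2 among them, it was 14748 to 15987 in Ccr2-/-, 28633 to 34038 in Ccl2-/- and 40351 to 50098 in wild type.

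In Ccr2-/- monocytes, Acvrl1, Acvr1, Eng and Bmpr2 fell, all of them genes of the BMP receptors and their co-receptor. Bmpr1a, a further BMP receptor, the TGF-beta receptor pair Tgfbr1 and Tgfbr2, and Tgfbr3 did not pass the test. The Bmpr2 call was lost in 11 of 18 alternative settings. A fall was not confined to BMP receptors: the activin receptor Acvr1b, outside the 8 genes, was also lower (0.576-fold, limma adjusted p = 0.00785). Of the 8 genes, 4 were lower and 0 higher than in wild type by limma at a Benjamini-Hochberg adjusted p under 0.05 over all genes. Among all 19938 genes, 8.38% were lower and 4.91% higher. Without overlap between the arrays of Ccr2-/- and wild type, 4 of the 8 genes were lower and 1, Tgfbr3, was higher, against 18.1% and 15.7% of all genes. The median log2 fold change was -0.21 over the 8 genes and 0.01 over all genes. In these bulk samples, fewer cells of a type and less RNA per cell cannot be told apart. With the size limits that the methods name, a ratio over 1.2 and a difference over 100 in intensity, 5 of the 8 genes differed, as did 15.8% of all genes.

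In Ccl2-/- monocytes, 0 of the 8 genes passed limma's test in either direction, and 4 had an unadjusted p under 0.05: Tgfbr3, with a higher mean than wild type, and Acvrl1, Acvr1 and Eng, with lower means. At that unadjusted threshold 6.78% of all genes were higher and 6.32% lower. Few genes of the whole array were called after adjustment, 0.0752% of them higher and 0.0853% lower. The arrays of Ccl2-/- and wild type did not overlap for 1 gene that was higher, Tgfbr3, and 2 that were lower, Acvrl1 and Eng, against 9.43% and 9.31% of all genes. The size limits were passed by 4 of the 8 genes and by 11.6% of all genes. The median log2 fold change was 0.04 over the 8 genes and 0.08 over all genes, and centring each array on its median moved the median of all genes to -0.03.

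Between the knockouts, 1 of the 8 genes passed limma's test: Acvrl1, which was lower in Ccr2-/- than in Ccl2-/- monocytes. Of all genes, 2.87% were lower and 0.732% higher, a split of 572 to 146 genes that became 61 to 70 when each array was centred on its median and 283 to 185 with quantile normalization. At an unadjusted p under 0.05, 4 of the 8 genes were lower (Acvrl1, Eng, Bmpr2 and Acvr1) and 0 were higher, against 12.9% and 5.66% of all genes. The arrays did not overlap for 5 of the 8 genes, all with lower values in Ccr2-/- (these 4 and Tgfbr3), and for 0 genes with higher values, against 16% and 7.58% of all genes. The size limits were passed by 4 of the 8 genes and by 12.6% of all genes. Both comparisons with wild type use the same wild type arrays and are therefore given side by side, without a measure of their likeness.

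**Figure D1:**
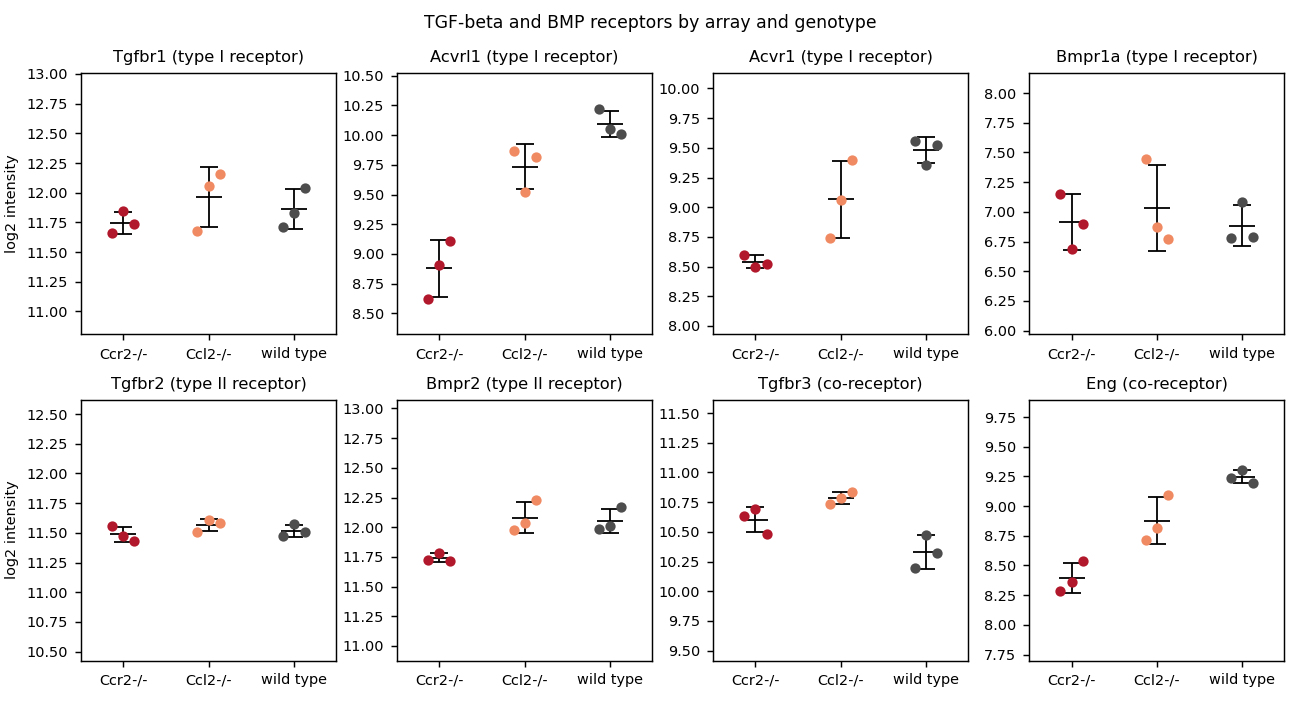
Log2 intensity of each receptor gene (y axis, the same span of log2 units in every panel) on each array (points) of Ccr2-/-, Ccl2-/- and wild type monocytes, with the mean and SD of 3 arrays as bars. The Ccr2-/- arrays lie below every wild type array for Acvrl1, Acvr1, Eng and Bmpr2, while the genotypes overlap for Tgfbr1, Tgfbr2 and Bmpr1a.

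Among the type I receptors, Acvrl1 (ALK1, the receptor for BMP9 and BMP10) differed most. Its log2 intensity was 8.62, 8.90 and 9.11 on the Ccr2-/- arrays, 9.87, 9.52 and 9.82 on the Ccl2-/- arrays and 10.22, 10.06 and 10.01 on the wild type arrays, each in the order of replicates 1 to 3. On the linear scale these are 394 to 551, 736 to 935 and 1031 to 1193. The genotypes did not overlap, with Ccr2-/- lowest, Ccl2-/- between and wild type highest. In Ccr2-/- monocytes Acvrl1 reached 0.430-fold of its wild type level (log2 fold change -1.22, standard error 0.14, limma adjusted p = 0.00106) and 0.552-fold of Ccl2-/- (log2 fold change -0.86, adjusted p = 0.0211). Against wild type the Ccl2-/- value was 0.779-fold (log2 fold change -0.36, adjusted p = 0.330), so the step between these neighbours did not pass the test.

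Acvr1 (ALK2), a type I receptor for several BMPs that can also form complexes with activin receptors, read 8.60, 8.50 and 8.52 in Ccr2-/- monocytes. It read 8.74, 9.06 and 9.40 in Ccl2-/- and 9.56, 9.36 and 9.53 in wild type monocytes. The Ccr2-/- arrays were the lowest and closest together (SD 0.05), and the Ccl2-/- arrays were spread over the gap (SD 0.33), the highest of them within the wild type range. In Ccr2-/- monocytes Acvr1 reached 0.520-fold of its wild type level (log2 fold change -0.94, standard error 0.15, adjusted p = 0.00380). The Ccl2-/- value was 0.750-fold of wild type (log2 fold change -0.42, adjusted p = 0.292), and Ccr2-/- was 0.694-fold of Ccl2-/- (log2 fold change -0.53, adjusted p = 0.102). Without Ccl2-/- replicate 3, the highest array of its group, Acvr1 was lower in Ccl2-/- than in wild type (log2 fold change -0.58, adjusted p = 0.0477), and without Ccl2-/- replicate 1, the lowest, it was lower in Ccr2-/- than in Ccl2-/- (log2 fold change -0.69, adjusted p = 0.0154).

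Tgfbr1 (ALK5), the type I receptor for TGF-beta, had no call. It read 11.66, 11.84 and 11.74 in Ccr2-/-, 11.68, 12.05 and 12.15 in Ccl2-/- and 11.71, 11.83 and 12.04 in wild type monocytes, and the genotypes overlapped. Its ratio to wild type was 0.922 in Ccr2-/- (95% interval 0.743 to 1.15, adjusted p = 0.772) and 1.07 in Ccl2-/- monocytes (95% interval 0.862 to 1.33, adjusted p = 0.713). Bmpr1a (ALK3), a receptor for BMP2 and BMP4, was dim on every array (linear intensity 103 to 174) and read 7.15, 6.69 and 6.90 in Ccr2-/-, 7.44, 6.87 and 6.77 in Ccl2-/- and 6.78, 7.08 and 6.79 in wild type. Its groups overlapped throughout. The Bmpr1a ratio to wild type was 1.02 in Ccr2-/- (95% interval 0.753 to 1.39) and 1.11 in Ccl2-/- monocytes (95% interval 0.815 to 1.5), which leaves changes of up to these bounds undetected.

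Of the type II receptors, Bmpr2, the partner of the BMP type I receptors, was lower in Ccr2-/- monocytes by a smaller amount. Its log2 intensity was 11.72, 11.79 and 11.72 on the Ccr2-/- arrays, 11.98, 12.03 and 12.23 on the Ccl2-/- arrays and 11.98, 12.01 and 12.17 on the wild type arrays. Every Ccr2-/- array lay below every other array, and Ccl2-/- and wild type overlapped. In Ccr2-/- monocytes Bmpr2 reached 0.805-fold of its wild type level (log2 fold change -0.31, standard error 0.09, adjusted p = 0.0485) and 0.791-fold of Ccl2-/- (log2 fold change -0.34, adjusted p = 0.0764), while Ccl2-/- was 1.02-fold of wild type (adjusted p = 0.888). The fall against wild type depended on single arrays and on the scaling: it was lost without Ccl2-/- replicate 2, without any 1 of the Ccr2-/- arrays or without any 1 of the wild type arrays, and with centring, quantile normalization, robust variances or the replicate number as a block, at adjusted p of 0.0507 to 0.201 over these 11 of 18 alternatives. Without Ccl2-/- replicate 1, or with an intensity trend in the variances, Bmpr2 passed against Ccl2-/- as well (adjusted p = 0.0387 and 0.0178).

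Tgfbr2, the type II receptor for TGF-beta, had the narrowest intervals of the 8 genes. It read 11.55, 11.47 and 11.44 in Ccr2-/-, 11.51, 11.61 and 11.58 in Ccl2-/- and 11.47, 11.57 and 11.51 in wild type monocytes. The genotypes overlapped and the group SDs were 0.05 to 0.06. Its ratio to wild type was 0.979 in Ccr2-/- (95% interval 0.883 to 1.09, adjusted p = 0.908) and 1.04 in Ccl2-/- monocytes (95% interval 0.933 to 1.15, adjusted p = 0.694). Tgfbr2 lies on chromosome 9, as the deleted Ccr2 does. The 4 genes that fell lie on chromosomes 15 (Acvrl1), 2 (Acvr1 and Eng) and 1 (Bmpr2). The part of chromosome position in the receptor values was not tested.

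Of the co-receptors, Eng passed the test and Tgfbr3 did not. Eng (endoglin), which presents BMP9 and BMP10 to ACVRL1, read 8.29, 8.36 and 8.54 in Ccr2-/-, 8.71, 8.82 and 9.10 in Ccl2-/- and 9.23, 9.31 and 9.20 in wild type monocytes. The 3 genotypes did not overlap, in the same order as for Acvrl1. In Ccr2-/- monocytes Eng reached 0.554-fold of its wild type level (log2 fold change -0.85, standard error 0.11, adjusted p = 0.00151). It was 0.774-fold of wild type in Ccl2-/- (log2 fold change -0.37, adjusted p = 0.211), and Ccr2-/- was 0.716-fold of Ccl2-/- (log2 fold change -0.48, adjusted p = 0.0543). These turned on single arrays or settings. Without Ccl2-/- replicate 3, Eng passed in Ccl2-/- against wild type (log2 fold change -0.48, adjusted p = 0.0469), and without Ccl2-/- replicate 1 it passed in Ccr2-/- against Ccl2-/- (log2 fold change -0.56, adjusted p = 0.0227), as it did with an intensity trend, the offset of 50 or only genes with a mean over 100 (adjusted p = 0.0353, 0.0467 and 0.0487).

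Tgfbr3 (betaglycan), the co-receptor that binds TGF-beta and inhibin, had its lowest values in wild type. It read 10.64, 10.69 and 10.49 in Ccr2-/-, 10.73, 10.79 and 10.83 in Ccl2-/- and 10.20, 10.48 and 10.32 in wild type monocytes. Every array of both knockouts was above every wild type array. The ratio to wild type was 1.21 in Ccr2-/- (95% interval 1.05 to 1.39, adjusted p = 0.0927) and 1.37 in Ccl2-/- monocytes (95% interval 1.19 to 1.58, adjusted p = 0.0916), and neither passed. With an intensity trend in the variances the Ccl2-/- value passed (adjusted p = 0.0296). The summed NK cell markers given above were likewise higher in both knockouts than in wild type, although they were highest in Ccr2-/- and Tgfbr3 was highest in Ccl2-/-, and their part in the Tgfbr3 values was not tested. The study counts Tgfbr3 among the Ly-6Clo genes raised in Ccl2-/- monocytes, and reports that signature's shift as more marked in Ccr2-/- monocytes. By the size limits that the methods name, in place of limma, Tgfbr3 was higher than wild type in both knockouts. For Tgfbr3 itself, Ccr2-/- was 0.882-fold of Ccl2-/- here (limma adjusted p = 0.330), with no overlap between the arrays.

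**Figure D2:**
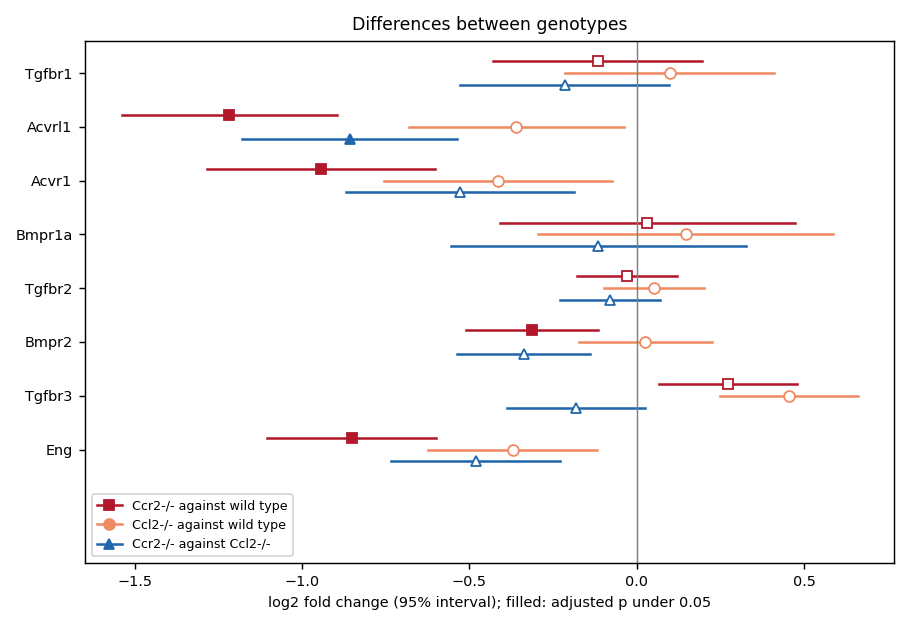
Log2 fold change (x axis, points) with its 95% interval (lines) for each receptor gene in Ccr2-/- against wild type (squares), Ccl2-/- against wild type (circles) and Ccr2-/- against Ccl2-/- (triangles), filled where the limma adjusted p is under 0.05. Filled symbols stand at -1.22 (Acvrl1), -0.94 (Acvr1), -0.85 (Eng) and -0.31 (Bmpr2) in Ccr2-/- against wild type and at -0.86 (Acvrl1) between the knockouts.

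The fall of Acvrl1, Acvr1 and Eng in Ccr2-/- monocytes passed the test in all 18 alternatives, with a highest adjusted p of 0.00756, 0.0218 and 0.0102 in that order of genes. On the Ccr2-/- arrays Acvr1 (linear intensity 361 to 388) and Eng (313 to 371) lay near the array medians of 343.6 to 354.7. The deleted Ccr2 had a higher mean log2 there (9.44) than Acvrl1 (8.88), Acvr1 (8.54) or Eng (8.39). Without detection calls, how far these levels lie above background is not known. The fall of Acvrl1 between the knockouts was lost in 5 of 18, among them the fits without Ccl2-/- replicate 3 (adjusted p = 0.0664), without Ccr2-/- replicate 1 (0.0848) and without Ccr2-/- replicate 2 (0.0900). Monocyte markers moved with these receptors. All 9 Ly-6Chi markers and 8 of 10 pan-monocyte markers were lower in Ccr2-/- than in wild type by limma. One of the 9 is Ccr2, the deleted gene, so its fall says nothing about cell types. The pan-monocyte markers summed to 49035 to 53870 on the Ccr2-/- arrays, 59279 to 65462 on the Ccl2-/- arrays and 63767 to 67008 on the wild type arrays. Of 12 Ly-6Clo markers, 3 were higher (Cd9, Spn and Pecam1) and 0 lower, and all 17 NK cell markers were higher. The part of these markers in the receptor values was not tested.

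Since Acvrl1 and Eng are endothelial genes, the endothelial list was read beside them. Of its 11 measured members, 9 had no limma call in Ccr2-/- against wild type. Among them, Cdh5, the cadherin of endothelial junctions, averaged 7.85 in Ccr2-/- and 7.79 in wild type (adjusted p = 0.809). The angiopoietin receptor family member Tie1 averaged 8.05 in both (adjusted p = 0.999). Kdr and Tek, the VEGF and angiopoietin receptors, likewise did not pass (adjusted p = 0.904 and 0.928). The other members moved in opposite directions in Ccr2-/- against wild type, and both calls held in all 18 alternatives. Pecam1 (also in the Ly-6Clo list) was higher (1.75-fold, adjusted p = 0.00139) and Flt1 lower (0.561-fold, adjusted p = 0.00906). The list summed to 4448 to 4554 on the Ccr2-/- arrays, 4183 to 5083 on the Ccl2-/- arrays and 3648 to 4333 on the wild type arrays. Without Pecam1, a choice made after seeing the data, the direction of the sum turned: the other 10 markers summed to 2507 to 2662 on the Ccr2-/- arrays, 2872 to 3441 on the Ccl2-/- arrays and 2685 to 3214 on the wild type arrays. Among these 10, only Flt1 had a call in Ccr2-/- against wild type. Flt1 averaged 8.67 in Ccr2-/-, 9.30 in Ccl2-/- and 9.51 in wild type. The sum without Flt1 as well was not computed, so a lower level across the list is not shown. The part of endothelial RNA in the Acvrl1 and Eng values was not tested.

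The genes whose log2 level followed each receptor most closely over the 9 arrays were looked up among 17845 genes with a mean intensity over 100. These correlations are descriptions: the arrays fall into 3 genotypes, so any gene with the same genotype pattern scores high. For Acvrl1 they were Alox5ap (r = 0.995), Ctss (0.994) and Coro2a (0.994), of which Ctss, the lysosomal protease cathepsin S, also stands in the pan-monocyte list. Acvr1 was followed by Nlrp1b (0.994), Phf10 (0.993) and Rnf144b (0.991), and Eng by Pfkfb4 (0.994), Gapt (0.993) and Ctnna1 (0.991). For Bmpr2 the closest were Clec4a3 (0.980), Cdc42bpb (0.978) and Ccdc88a (0.978), and for Tgfbr3 they were Krt78 (0.965), Dnah12 (0.947) and Prr23a1 (0.940).

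Among the receptors without a call, Tgfbr1 was nearest to Rtn1 (0.974), Samsn1 (0.967) and Foxn2 (0.953) and Tgfbr2 to Wwp2 (0.916), Akirin2 (0.902) and Pygo1 (0.896). Of the companions of Bmpr1a, Shroom4 and Itpk1 lost the likeness when each array was centred on its median, and Mc4r kept most of it: r was 0.970 for Shroom4, 0.969 for Itpk1 and 0.964 for Mc4r as deposited, and 0.53, 0.0035 and 0.90 for the same genes after centring. For the other 7 receptors the r of every gene named stayed between 0.87 and 0.995 after centring.

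The rest of the pathway was read from lists of its ligands, their activators and antagonists, the other receptors, the SMADs, their regulators, a branch without SMADs and common target genes, 112 measured genes in all besides the 8. In Ccr2-/- monocytes 12 of them were lower (10.7%, against 8.38% of all genes) and 4 higher (3.57%, against 4.91%). In Ccl2-/- monocytes 0 passed the limma test against wild type, with 13 higher and 5 lower of 112 at an unadjusted p under 0.05, against 6.78% and 6.32% of all genes. Between the knockouts 5 were lower in Ccr2-/- (4.46%, against 2.87% of all genes) and 0 higher (against 0.732%). At an unadjusted p under 0.05, 22 of 112 were lower and 3 higher there, against 12.9% and 5.66% of all genes. For the counts of single lists that follow, the limma shares of all genes in this paragraph are the background. No list was tested as a set.

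Of 12 other receptors of the superfamily, 1 passed in Ccr2-/- against wild type and 0 in the other comparisons: Acvr1b (ALK4, the type I receptor for activin). It averaged 8.90 ± 0.16 in Ccr2-/-, 9.20 ± 0.26 in Ccl2-/- and 9.70 ± 0.15 in wild type monocytes (SD, n = 3 each) and was 0.576-fold of wild type in Ccr2-/- (adjusted p = 0.00785). The same order of genotypes was seen for Acvrl1, Acvr1 and Eng. The activin type II receptor Acvr2a had a ratio to wild type of 0.816 in Ccr2-/- (adjusted p = 0.0631) and Acvr2b one of 1.02 (adjusted p = 0.977).

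Of 32 ligands, Tgfb1, the main TGF-beta of blood cells, was lower in Ccr2-/- than in wild type monocytes (0.767-fold, adjusted p = 0.00706) and than in Ccl2-/- (0.795-fold, adjusted p = 0.0405), and Tgfb3 was higher than in wild type (1.42-fold, adjusted p = 0.0103). Gdf3, a ligand of the TGF-beta superfamily, was 0.774-fold of Ccl2-/- in Ccr2-/- monocytes (adjusted p = 0.0282), but 1.00-fold of wild type (adjusted p = 0.986). Its mean log2 was 8.10 in Ccr2-/-, 8.47 in Ccl2-/- and 8.09 in wild type. The group that stood apart was thus Ccl2-/-, at 1.30-fold of wild type (limma adjusted p = 0.0774). The ligands of ACVRL1, Gdf2 (BMP9) and Bmp10, had no call in any comparison. Both were dim, with group means of log2 7.78 to 8.02 (Gdf2) and 6.71 to 6.82 (Bmp10). Without detection calls, an unchanged gene and an undetected one cannot be told apart. Centring each array ended the call of Tgfb1 against wild type (adjusted p = 0.0797), and the calls of Tgfb1 and Gdf3 between the knockouts were lost in 12 of 18 alternatives each, without any 1 array other than Ccl2-/- replicate 1 among them (adjusted p up to 0.412 and 0.263). Tgfb3 lost its call without wild type replicate 1 (adjusted p = 0.0501).

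Of 13 genes that store or activate latent TGF-beta, 3 were lower in Ccr2-/- monocytes than in wild type. Thbs1 (thrombospondin-1, which frees TGF-beta from its latent complex) was 0.436-fold (adjusted p = 0.000517), Furin (the protease that cleaves the TGF-beta precursor) 0.687-fold (adjusted p = 0.0032) and Nrros (which anchors latent TGF-beta on myeloid cells) 0.767-fold (adjusted p = 0.0111). Thbs1 was also 0.437-fold of Ccl2-/- (adjusted p = 0.00443), with means of 10.28 ± 0.10 in Ccr2-/-, 11.47 ± 0.17 in Ccl2-/- and 11.47 ± 0.05 in wild type (SD, n = 3 each). The Thbs1 and Furin calls against wild type held in all 18 alternatives, and Nrros lost its call with centring and without wild type replicate 1 (adjusted p up to 0.0810). None of the 12 secreted antagonists, such as the BMP-binding proteins, passed limma in any comparison, and 0 of them had an unadjusted p under 0.05 against wild type in either knockout (2, both lower, between the knockouts). Their group means ran from log2 7.09 (Dcn in Ccr2-/-) to 9.68 (Fstl3 in Ccl2-/-), and which of them were detected is not known.

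Downstream of the receptors, 1 of 6 SMADs passed. Smad3, which carries the TGF-beta signal, was higher in Ccr2-/- (12.35 ± 0.07) than in wild type monocytes (11.72 ± 0.10, SD, n = 3 each), a 1.55-fold difference (adjusted p = 0.00366) that held in all 18 alternatives, with Ccl2-/- between at 12.10 ± 0.17. The SMADs of the BMP branch had no call: Smad1 was 0.921-fold of wild type in Ccr2-/- (adjusted p = 0.688), Smad5 1.21-fold (adjusted p = 0.0938) and Smad9 0.962-fold (adjusted p = 0.931). Where Acvrl1, Acvr1, Bmpr2 and Eng were lower, the RNA of the SMADs of the BMP branch did not pass the test in either direction. The arrays do not measure SMAD protein or its phosphorylation, so signalling was not tested.

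Among 17 intracellular inhibitors and regulators, 4 were lower in Ccr2-/- monocytes than in wild type: Tgif1 (a repressor of SMAD-driven transcription, 0.836-fold), Nedd4l (a ubiquitin ligase, 0.755-fold), Zfyve9 (SARA, which brings SMADs to the receptor, 0.697-fold) and Ldlrad4 (an inhibitor of SMAD2 and SMAD3 activation, 0.766-fold). The SMAD co-repressor Ski was higher (1.24-fold). Their adjusted p were 0.0216, 0.0134, 0.0468, 0.0107 and 0.0348 in that order, and all 5 calls were lost with centring. Single arrays ended them too: Ldlrad4 was lost without Ccr2-/- replicate 2, Nedd4l without Ccr2-/- replicate 1 or 2 or wild type replicate 2 or 3, and Ski and Tgif1 without any 1 wild type array or Ccr2-/- replicate 1, and further without Ccr2-/- replicate 2 (Ski) or 3 (Tgif1). Zfyve9 was lost without Ccl2-/- replicate 2 or any 1 Ccr2-/- or wild type array. Adjusted p then reached 0.0947 (Ldlrad4), 0.0616 (Nedd4l), 0.190 (Ski), 0.140 (Tgif1) and 0.157 (Zfyve9) at most. Tgif1 was also 0.816-fold of Ccl2-/- (adjusted p = 0.0370), a call lost in 12 of 18 alternatives. Of 8 genes of the branch without SMADs, Mapk14 (the kinase p38 alpha) was 0.833-fold of wild type in Ccr2-/- (adjusted p = 0.0277), a call lost in 9 of 18 alternatives, without Ccl2-/- replicate 2, any 1 Ccr2-/- array or wild type replicate 1 or 2 among them (adjusted p up to 0.113).

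Of 15 common target genes, 2 were lower and 1 higher in Ccr2-/- monocytes than in wild type, against 8.38% and 4.91% of all genes. Tgfbi, a secreted matrix protein named for its induction by TGF-beta, was 0.532-fold of wild type (adjusted p = 0.000927) and 0.645-fold of Ccl2-/- (adjusted p = 0.0200). Klf10, a TGF-beta-inducible transcription factor, was 0.763-fold of wild type (adjusted p = 0.0132), and Id2, an inhibitor of DNA binding that BMPs induce and that NK cells also use, was 1.30-fold (adjusted p = 0.00586). The BMP targets Id1 (0.846-fold, adjusted p = 0.177) and Id3 (0.916-fold, adjusted p = 0.662) and the feedback inhibitors Smad6 (1.00-fold, adjusted p = 0.994) and Smad7 (1.30-fold, adjusted p = 0.0925) had no call. Id2 and Tgfbi kept their calls against wild type in all 18 alternatives, and Klf10 lost its call in 5 (with centring and without Ccr2-/- replicate 1 or 2 or wild type replicate 1 or 2, adjusted p up to 0.0604). Tgfbi lost its call against Ccl2-/- in 6, without Ccl2-/- replicate 3 or Ccr2-/- replicate 1 or 2 among them (adjusted p up to 0.0900).

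**Figure D3:**
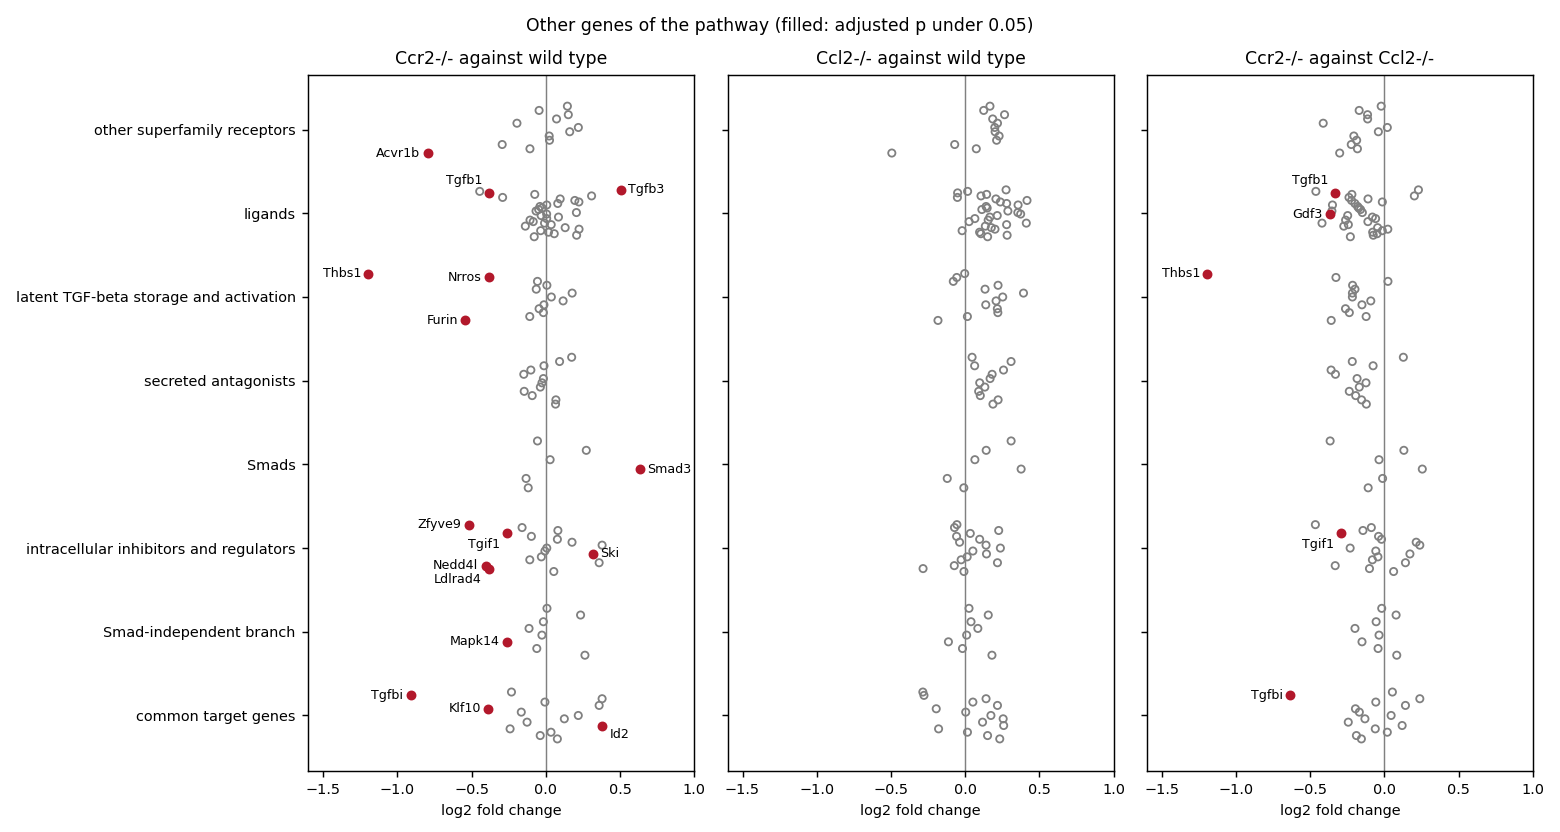
Log2 fold change (x axis) of every measured gene of 8 pathway lists (rows, 1 point per gene and list) in Ccr2-/- against wild type, Ccl2-/- against wild type and Ccr2-/- against Ccl2-/-, with genes at a limma adjusted p under 0.05 filled and named. Thbs1 stands farthest to the left at -1.20 in Ccr2-/- against wild type, Smad3 farthest to the right at 0.63, and no point is filled for Ccl2-/- against wild type.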

How the data were processed

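RNA of CD11b-selected blood monocytes, pooled from 5 mice per array, was hybridised to Affymetrix Mouse Gene 1.0 ST arrays (3 per genotype). The authors computed linear intensity values with dChip and deposited 1 intensity per transcript cluster and array. The dChip version, normalization and expression model are not given in the sources used here, nor are detection calls or the genome build of the probes. Of 35512 clusters, 21789 carried 1 gene symbol, 1621 several and 12102 none. Only the first kind was used, and 999 genes with several clusters were read from the one with the highest mean log2 value, which gave 19938 genes. Intensities below 1 (19 values) were set to 1 before log2.

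All 9 arrays entered a linear model of the genotypes (limma 3.58.1, R 4.3.3), which was tested on simulated data. Variances were moderated by empirical Bayes, p-values were adjusted by Benjamini-Hochberg over the 19938 genes, and calls were made at an adjusted p under 0.05. Each p measures the spread between pooled arrays, not mice, and the number of arrays limits the precision. Intervals are 95% intervals of the fit. All 8 receptors are named, with the list genes past the test (the 4 with the smallest p of a list, or all where 5 or fewer) and, for each receptor, the 3 genes with the highest Pearson r, predicted genes skipped. List genes named without a call, such as the SMADs, were chosen after their values were seen. The receptors and all lists were chosen with earlier results of these data known. The alternatives were centring or quantile normalization of arrays, an offset of 50 before log2, a filter at a mean of 100, an intensity trend or robust variances, averaging the clusters of a gene, fitting only the 6 arrays of a comparison, blocking on the replicate number and leaving out each array. The size limits of the methods section (ratio over 1.2, difference over 100) were applied to group means. Promoter sequences are from RefSeq (GRCm38.p6), matched by symbol.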

Additional observations from a re-analysis of the deposited data

How the results depend on the processing

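Over 24 receptor results (8 genes in 3 comparisons) and 18 alternatives each, 393 of 432 values kept direction and side of the threshold, 16 lost the call, 10 gained one and 13 reversed sign. No reversed value was called, and the cause was not tested. In Ccl2-/- against wild type the reversed log2 fold changes were -0.0173 (Tgfbr1), -0.0655 (Tgfbr2) and -0.0902 (Bmpr2) with centring. With 1 array left out, Bmpr1a ran from -0.0613 to 0.275 and Bmpr2 from -0.0494 to 0.0831. In Ccr2-/- against wild type Bmpr1a was -0.0150 with centring, -0.0317 with quantile normalization and -0.0893 to 0.143 with 1 array left out, and Tgfbr2 was 0.00262 with quantile normalization. Between the knockouts Bmpr1a was -0.244 to 0.0921 with 1 array left out, above 0 without Ccl2-/- replicate 1.

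In Ccl2-/- against wild type, 0 receptors and 32 of all genes were called. This became 1 and 366 with an intensity trend, 105 genes with the offset of 50, 2 with the 6 arrays compared, 4 receptors with the size limits, and 0 to 2 receptors and 6 to 476 genes with 1 array left out, the most without Ccl2-/- replicate 3. In Ccr2-/- against wild type, 4 receptors and 2648 genes were called, 3 and 1690 with centring, and 3 to 4 and 1663 to 3479 with 1 array left out. In Ccr2-/- against Ccl2-/-, 1 receptor and 718 genes were called. This became 131 genes with centring, 468 with quantile normalization, 0 and 17 with the 6 arrays compared, 3 and 1344 with an intensity trend, 2 receptors each with the offset and with genes over 100 only, 4 with the size limits, and 0 to 4 receptors and 22 to 1189 genes with 1 array left out. The 4 receptors were called without Ccl2-/- replicate 1.

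The labels do not say whether the replicate numbers pair the arrays, and the main fit did not pair them. Deviations of same-numbered arrays from their group means correlated from -0.18 to 0.56, the highest for replicate 3 of wild type and Ccl2-/-. Differently numbered arrays were not compared, so a pairing was not tested. With the replicate block, 3 receptors and 2094 genes were called in Ccr2-/- against wild type, 0 and 7 in Ccl2-/- against wild type, and 0 and 167 between the knockouts.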
